A study of Homo sapiens with 6 samples.

Results

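The BCL2 family decides whether the outer membrane of the mitochondrion is opened during apoptosis, and 10 of its genes were followed here in osteosarcoma cells treated with ailanthone. They were taken by symbol from a table of 13439 genes: the anti-apoptotic MCL1, BCL2L1 and BCL2L2, the effectors BAX and BAK1, and the BH3-only genes BID, BAD, BBC3, PMAIP1 and BCL2L11. All 10 were present and passed the filter on low values. The libraries came from cells labelled Saos-2, an established human osteosarcoma line, held for 24 h in 0.20 µM AIL (ailanthone, a quassinoid of plant origin) or in its solvent DMSO. Each treatment had 3 libraries of total RNA, and all cells shared the same medium with fetal bovine serum. Nothing in the labels says how the replicate cultures were kept apart, so p-values measure the spread among these 6 libraries.

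Anti-apoptotic members such as MCL1 and BCL-XL (the long product of BCL2L1) hold the effectors BAX and BAK in check. BH3-only proteins, released or made under stress, bind the anti-apoptotic members or act on the effectors directly. Once active, BAX and BAK form pores that let cytochrome c reach the cytosol, where it assembles the caspase-activating apoptosome. Much of this control lies in binding, phosphorylation and protein turnover, which transcript levels do not report.

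Transcripts were measured as TMM-normalized CPM, reads scaled to a common library total, at depths of 32540000 to 38050000 scaled reads per library, where 1 read was worth 0.0263 to 0.0307 CPM. Of 11069 genes tested with limma, 54.1% passed an adjusted p of 0.05, 28.2% higher and 25.9% lower under AIL. Mitochondrially encoded transcripts, followed as a sign of RNA quality, summed to 4205 to 4374 CPM under DMSO and 3600.5 to 3726 CPM under AIL, with 10 of 13 lower, among them MT-CO1, MT-CO2, MT-CO3 and MT-ND6. Their part in the results below was not tested. Of 10 osteoblast lineage markers, SP7, ALPL, IBSP, COL1A1 and COL1A2 were not analysed here. RUNX2 lay at 4.36 to 5.04 CPM, while SPP1, BGLAP and SPARC were at or near 0, none above 0.28 CPM, although bone-forming cells are known for them. The use of strand in counting is not given in the sources used here.

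Of the 10 members, 3 rose (MCL1, BCL2L2 and BAK1) and 1 fell (BID), 40% against the 54.1% called over all genes. With the replicate number as a block, 4 members were called higher and 2 lower. Over all 11069 genes that fit called 3347 higher and 3121 lower, also more than without the block. The anti-apoptotic group held 2 of 3 members higher, the effectors 1 of 2, and the BH3-only group 0 of 5 higher and 1 of 5 lower. The shares called higher and lower over all genes were 28.2% and 25.9%, so groups of 2 to 5 genes set no member group apart. All changes were small: the member differences ran from -0.23 to 0.33 on the log2(CPM + 1) scale, with a median size of 0.10 against 0.13 over all genes tested. The DMSO and AIL libraries did not overlap for 6 of the 10 members, against 60.1% of all genes tested. Of these 6, 4 were higher and 2 lower under AIL, where 30.9% and 29.2% of all genes were. In a bulk measure, fewer cells that express a gene and less of its RNA per cell cannot be told apart.

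**Figure D1:**
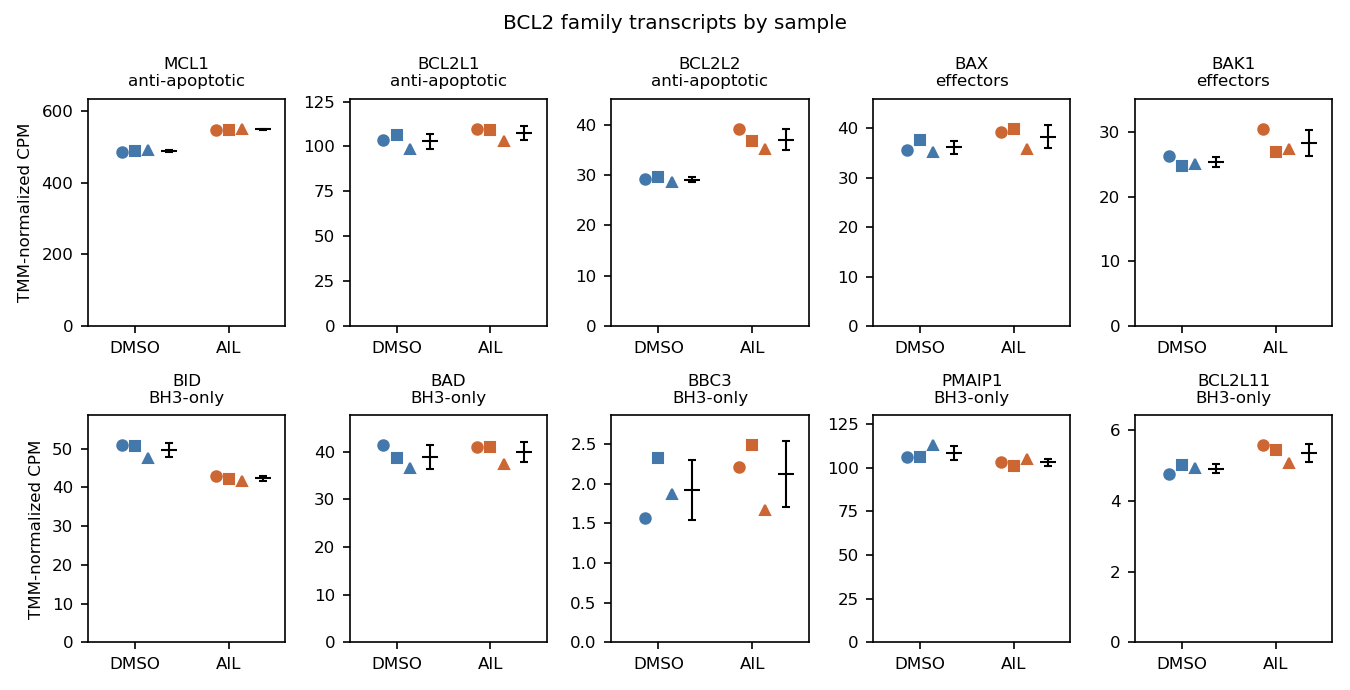
TMM-normalized CPM of the 10 BCL2 family genes (vertical axes, each from 0) in the 3 DMSO and 3 AIL libraries, with circle, square and triangle for replicates 1, 2 and 3 and a black mark for the mean with its SD (n = 3). MCL1, BCL2L2 and BAK1 sit higher and BID lower under AIL, while BBC3 lies between 1.57 and 2.49 CPM in both groups.

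MCL1, a short-lived protein that restrains BAK and BIM, had the highest level of the 10 both in CPM and per transcript length. Its level was 486.57, 487.12 and 489.78 CPM in the DMSO libraries and 547.39, 546.46 and 550.83 CPM in the AIL libraries. Every AIL library lay above every DMSO library, and the replicates of each group were nearly level. MCL1 rose by 12.4%, a log2 difference of 0.17 (SE 0.0228, adjusted p = 8.62e-06, limma).

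BCL2L2, which encodes BCL-w, had the widest change of the members. Its level was 29.22, 29.54 and 28.66 CPM under DMSO and 39.29, 36.74 and 35.12 CPM under AIL. The groups did not overlap, and the AIL libraries were spread more widely than the DMSO libraries. BCL2L2 rose by 27.1%, a log2 difference of 0.33 (SE 0.0449, adjusted p = 7.38e-06, limma), and 11.03% of all tested genes differed by at least as much. In the GENCODE v29 annotation 20.6% of its 50-base words also occur in other genes, mostly in the read-through gene BCL2L2-PABPN1. That read-through gene was counted apart at 9.18 ± 0.237 CPM under DMSO and 9.92 ± 1.81 CPM under AIL (SD, n = 3) and did not pass the test (log2 difference 0.09, adjusted p = 0.439, limma).

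BCL2L1 encodes BCL-XL and, by alternative splicing, the pro-apoptotic BCL-XS, and gene-level values cannot separate them. It was measured at 103.64, 106.27 and 98.51 CPM under DMSO and 110.02, 109.42 and 102.87 CPM under AIL. The lowest AIL library lay within the range of the DMSO libraries. The log2 difference was 0.06 with a 95% interval of -0.01 to 0.14, and the call was missed (adjusted p = 0.135, limma). With the replicate number as a block the difference of 0.06 passed (adjusted p = 0.0366, limma), and it also passed without AIL replicate 3 (0.09, adjusted p = 0.0131). Without DMSO replicate 3 it was 0.03 (adjusted p = 0.48, limma). Of its 50-base words, 37.4% are shared with annotated transcripts of other genes, most with ABALON on the opposite strand.

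Of the effectors, BAK1 rose and BAX did not pass the test. BAX, which shifts from the cytosol to mitochondria when activated, was at 35.71, 37.68 and 35.13 CPM under DMSO and 39.29, 39.98 and 35.78 CPM under AIL. The groups overlapped through AIL replicate 3. The log2 difference was 0.08 (95% interval -0.02 to 0.18, adjusted p = 0.147, limma), and without AIL replicate 3 it was 0.13 (adjusted p = 0.0103, limma). Without AIL replicate 2 it was 0.05 (adjusted p = 0.425, limma).

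BAK1 encodes BAK, which resides on the outer membrane. Its values were 26.30, 24.82 and 25.06 CPM under DMSO and 30.59, 26.93 and 27.37 CPM under AIL. All AIL libraries were above all DMSO libraries, with AIL replicate 1 apart from the other two. BAK1 rose by 11.4% (log2 difference 0.15, SE 0.0510, adjusted p = 0.0203, limma). This call rested on single libraries: it was missed without AIL replicate 1 (log2 difference 0.09, adjusted p = 0.153), without DMSO replicate 2 (adjusted p = 0.075) and without DMSO replicate 3 (adjusted p = 0.0587). Of its 50-base words, 14% recur in other genes, chiefly the pseudogene BAK1P1, so its counts are less certain.

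Among the BH3-only genes, BID links death receptors to mitochondria, since caspase-8 cleaves its product into an active fragment. BID stood at 50.92, 50.55 and 47.64 CPM under DMSO and 42.95, 42.27 and 41.63 CPM under AIL. All AIL libraries were lower than all DMSO libraries. BID fell by 14.9% (log2 difference -0.23, SE 0.0377, adjusted p = 6.85e-05, limma).

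PMAIP1 encodes NOXA, which binds MCL1 with preference. Its values were 106.26, 106.09 and 112.91 CPM under DMSO and 102.95, 101.05 and 105.10 CPM under AIL. The groups did not overlap, but the gap between them was narrower than the spread within either. The log2 difference of -0.07 (95% interval -0.14 to -0.01) missed the threshold after adjustment (adjusted p = 0.0632, limma). It passed with the replicate block (adjusted p = 0.0196), with median-of-ratios scaling (-0.08, adjusted p = 0.0393) and without AIL replicate 3 (-0.09, adjusted p = 0.0201). It was smaller without DMSO replicate 3 (-0.04, adjusted p = 0.299) and with quantile normalization (-0.05, adjusted p = 0.156).

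BAD, a sensitizer held inactive by phosphorylation, was at 41.36, 38.65 and 36.47 CPM under DMSO and 41.03, 41.03 and 37.37 CPM under AIL. The groups overlapped fully, and the log2 difference was 0.04 (95% interval -0.07 to 0.14, adjusted p = 0.557, limma). BAD shares 16.2% of its 50-base words with other genes, chiefly GPR137 on the opposite strand, which rose by 18.9% (adjusted p = 0.00356, limma). BCL2L11, which encodes BIM, a binder of all anti-apoptotic members, was at 4.76, 5.02 and 4.91 CPM under DMSO and 5.57, 5.42 and 5.07 CPM under AIL. Its groups did not overlap, yet the log2 difference of 0.11 (95% interval -0.05 to 0.26) was not past the threshold (adjusted p = 0.23, limma).

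BBC3 encodes PUMA, a binder of all anti-apoptotic members. It was the lowest member, at 1.57, 2.33 and 1.87 CPM under DMSO and 2.21, 2.49 and 1.67 CPM under AIL, or about 65.0 and 78.0 reads per library. Reads of that number carry a counting error of 12.4% in the DMSO libraries, where the observed coefficient of variation was 19.9%. The groups overlapped, and the 95% interval of the log2 difference of 0.09 ran from -0.15 to 0.34 (adjusted p = 0.515, limma). Single libraries moved this difference from 0.0059 (without DMSO replicate 1) to 0.20 (without AIL replicate 3), with no call. The interval takes in 0 and a rise as large as that of MCL1, and the scale understates changes of so low a gene. Whether BBC3 changed is thus not settled, and the part of depth in this was not tested.

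**Figure D2:**
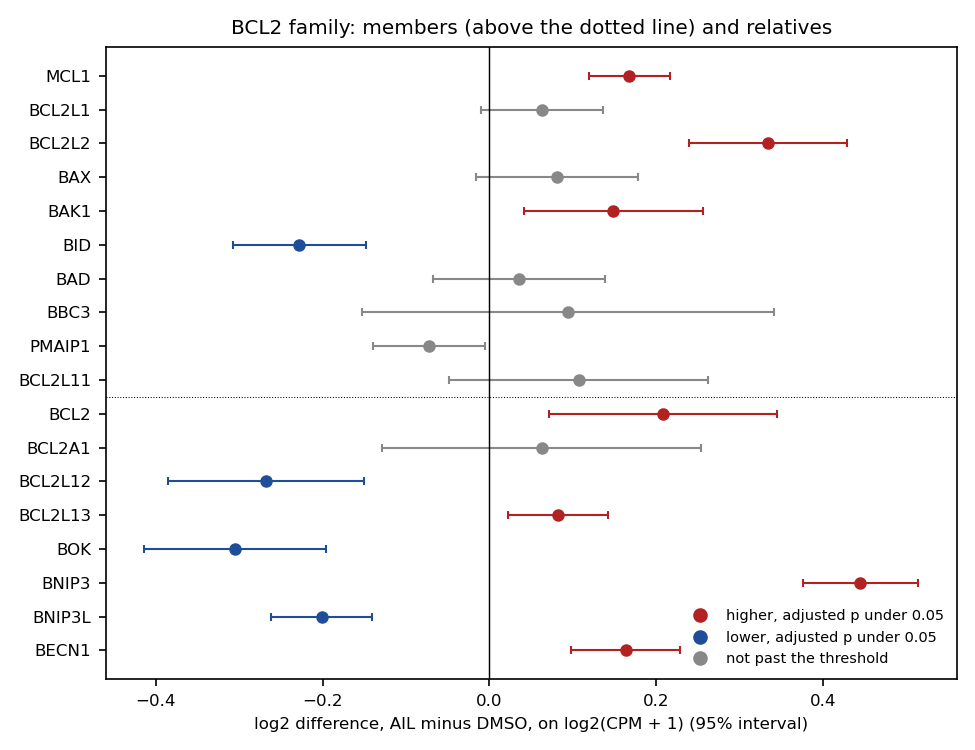
Log2 difference between AIL and DMSO on the log2(CPM + 1) scale with its 95% interval (horizontal axis) for the 10 members, above the dotted line, and 8 relatives, below it. Red and blue mark genes higher and lower at an adjusted p under 0.05 and grey the others, and the intervals of MCL1, BCL2L2, BAK1 and BID leave out 0, as does that of PMAIP1, which misses the threshold after adjustment.

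Levels of different genes were compared as CPM per kb of the principal GENCODE v29 transcript. Under DMSO, MCL1 was highest at 124.1 ± 0.437 CPM per kb (SD, n = 3). PMAIP1 followed at 55.7, BAX at 45.6 ± 1.69, BCL2L1 at 39.4 ± 1.51 and BAD at 33.6 ± 2.12 CPM per kb. BID (19.9 ± 0.720), BAK1 (11.9 ± 0.372), BCL2L2 (8.08 ± 0.124), BCL2L11 (3.22 ± 0.0858) and BBC3 (1.05 ± 0.208) lay lower on that scale. The order was the same under AIL, and no neighbours in it overlapped in either group. The anti-apoptotic genes thus stood at the top (MCL1), in the middle (BCL2L1) and near the bottom (BCL2L2) of the order. The isoforms in use are unknown, and the place of BAX depended on the length chosen. Its principal transcript is only 793 bases long, and divided by the 2587 bases of all its annotated exons its level was 13.98 CPM per kb, below BCL2L1 (31.0) and BAD (22.7) on the same scale.

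Pro-apoptotic members were then set against anti-apoptotic members within each library, as log2 ratios of CPM + 1. These ratios were not tested, because the members were chosen with results known. Relative to MCL1, 7 of 7 pro-apoptotic genes were lower on average under AIL, by 0.02 (BAK1) to 0.40 (BID). The DMSO and AIL libraries did not overlap for only 2 of these 7 ratios. Relative to BCL2L2, 7 of 7 were lower too, by 0.19 (BAK1) to 0.56 (BID), and 6 of 7 did not overlap. Relative to BCL2L1, 3 of 7 were lower and 4 of 7 higher, between -0.29 (BID) and 0.09 (BAK1), and 1 of 7 did not overlap. Each set of 7 shares its denominator, so the shared sign carries the rise of MCL1 or BCL2L2 and is not 7 separate results. Of single genes tested, 60.1% did not overlap, and no such share was computed for ratios of other genes. The counts of ratios that did not overlap therefore set these pairs apart from no others.

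PMAIP1 and MCL1, a known binding pair, had log2 ratios of -2.18, -2.19 and -2.11 under DMSO and -2.40, -2.42 and -2.38 under AIL. All AIL libraries lay below all DMSO libraries. The ratio of BID to MCL1 went from -3.27 ± 0.0567 to -3.67 ± 0.0268 (SD, n = 3) and also did not overlap. The ratio of BAX to BCL2L1, in contrast, was -1.48 ± 0.0262 under DMSO and -1.46 ± 0.0339 under AIL, and the groups overlapped. Over the 21 pairs the median difference was -0.14, with 17 pairs lower and 4 higher. The DMSO and AIL libraries did not overlap for 9 of the 21, beside 60.1% of single genes tested.

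**Figure D3:**
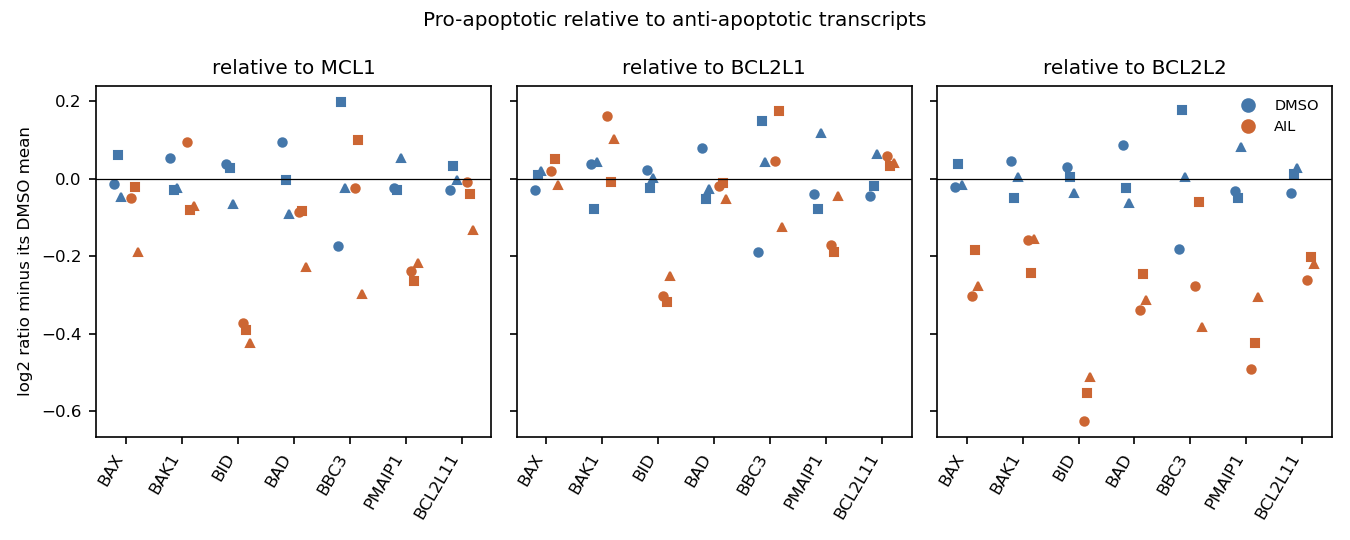
Log2 ratio of each pro-apoptotic gene (horizontal axis) to MCL1, BCL2L1 or BCL2L2 (panels), minus the DMSO mean of that ratio (vertical axis), for the 3 DMSO and 3 AIL libraries (circle, square and triangle for replicates 1, 2 and 3). AIL libraries lie below 0 for BID in all 3 panels, by 0.29 to 0.56 on average, and are spread around 0 for BAX relative to BCL2L1.

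The sequences just before the annotated starts of 4 members are shown, since 2 of these genes changed (BID and BAK1) and regulators known to bind such motifs changed themselves beside BAX and PMAIP1. They are the 250 bases before the start in the RefSeq promoter table (GRCh38.p14), taking the first entry of a gene, and 8 of the 10 members matched. MCL1 and BCL2L2 had no entry. The windows of the other members, not shown, held such motifs too. Capitals mark, on either strand, the E-box CACGTG, the CRE core TGACG, the GC box GGGCGG and the CCAAT box CCAAT. The windows are BAX at chr19:48954625-48954874 (plus strand), PMAIP1 at chr18:59899746-59899995 (plus strand), BID at chr22:17774470-17774719 (minus strand) and BAK1 at chr6:33580277-33580526 (minus strand).
BAX: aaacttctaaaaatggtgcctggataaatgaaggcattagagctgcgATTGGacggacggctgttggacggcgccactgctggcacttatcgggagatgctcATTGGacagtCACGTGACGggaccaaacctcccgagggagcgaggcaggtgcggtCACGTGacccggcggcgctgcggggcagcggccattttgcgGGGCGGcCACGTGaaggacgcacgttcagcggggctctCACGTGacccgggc
PMAIP1: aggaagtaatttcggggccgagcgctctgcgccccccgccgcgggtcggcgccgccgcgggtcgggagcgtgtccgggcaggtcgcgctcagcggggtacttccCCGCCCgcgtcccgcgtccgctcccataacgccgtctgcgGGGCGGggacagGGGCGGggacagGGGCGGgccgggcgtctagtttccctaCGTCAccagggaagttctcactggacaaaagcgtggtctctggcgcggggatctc
BID: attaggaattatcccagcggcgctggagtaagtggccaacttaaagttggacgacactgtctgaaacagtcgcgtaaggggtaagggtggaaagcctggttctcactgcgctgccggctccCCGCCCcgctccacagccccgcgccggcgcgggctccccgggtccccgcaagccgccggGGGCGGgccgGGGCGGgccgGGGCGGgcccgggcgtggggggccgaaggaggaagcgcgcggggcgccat
BAK1: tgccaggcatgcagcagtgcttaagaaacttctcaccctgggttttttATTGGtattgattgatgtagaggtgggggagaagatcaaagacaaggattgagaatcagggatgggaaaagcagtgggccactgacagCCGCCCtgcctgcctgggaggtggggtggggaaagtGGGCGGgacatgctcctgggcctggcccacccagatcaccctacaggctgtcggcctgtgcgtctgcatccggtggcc

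The BAX window held 4 copies of CACGTG, the word bound by MYC and related factors, the first of them overlapping a CRE core. Of 27305 promoter windows of the same length, 6.49% held at least 1 E-box and 0.0183% at least 4. That threshold of 4 equals the count in the BAX window itself, 1 of the 8 windows searched, so the share is not a test. MYC fell from 102.5 ± 1.46 to 92.7 ± 2.31 CPM (SD, n = 3, adjusted p = 6.48e-04, limma), while BAX did not pass the test. MYC and BAX were paired here after their values were seen. The PMAIP1 window held 1 CRE core, 55 bases before the start, and 4 GC boxes, and 21.7% of all windows held at least 1 CRE core. Among the windows not shown, BCL2L1 and BAD also held a CRE core, 201 and 54 bases before the start. That of BBC3 held an E-box, 232 bases before the start, so neither motif is particular to BAX or PMAIP1. The CRE is a word to which factors of the ATF and CREB family bind. ATF4 rose by 42.2%, while the log2 difference of PMAIP1, -0.07, missed the threshold. The BID window held 4 GC boxes, a number reached in 7.82% of windows, and the BAK1 window held 2 GC boxes and 1 CCAAT box. The composite word TGATGNAA of ATF4 with C/EBP partners occurred in 3.19% of windows and in none of the 8 members with an entry. These are matches of letters in 1 annotated window per gene and show no binding.

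Relatives of the 10 members were followed from a list of 14 genes, of which 12 were in the table and 8 passed the filter, while BCL2L10 and BCL2L14 were not analysed here. Of these 8, 4 rose (BCL2, BCL2L13, BNIP3 and BECN1), 3 fell (BCL2L12, BOK and BNIP3L) and BCL2A1 did not pass. The share called was 87.5%, against 54.1% of all genes. BNIP3, a mitophagy receptor with a BH3-like part, rose from 46.96 ± 0.488 to 64.3 ± 0.709 CPM (SD, n = 3; log2 difference 0.45, adjusted p = 6.91e-09, limma), and its homologue BNIP3L fell from 102.8 ± 2.02 to 89.3 ± 0.350 CPM (log2 difference -0.20, adjusted p = 1.59e-05, limma). The pair thus moved in opposite directions. BOK, an effector-like protein that anti-apoptotic members do not restrain, fell from 46.9 ± 3.77 to 37.7 ± 1.81 CPM (log2 difference -0.30, adjusted p = 8.61e-05, limma).

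BCL2 itself, the founding anti-apoptotic gene, rose from 11.97 ± 1.08 to 13.95 ± 0.385 CPM (SD, n = 3; log2 difference 0.21, adjusted p = 0.0117, limma). Its call was missed without DMSO replicate 1 (0.14, adjusted p = 0.0851) and with quantile normalization (adjusted p = 0.0521). BCL2L13, a mitophagy receptor, rose by 5.93% (adjusted p = 0.0219, limma). Its call was missed without DMSO replicate 1 (adjusted p = 0.0513, limma), which left 2 relatives higher in place of 4, and also without DMSO replicate 2, without AIL replicate 1 and with no intensity trend (adjusted p = 0.0992, 0.0849 and 0.0524). BECN1, the autophagy protein that binds BCL2 through a BH3 segment, rose from 61.05 ± 0.137 to 68.5 ± 0.445 CPM (adjusted p = 2.48e-04, limma). BCL2L12 fell by 17.7% (adjusted p = 5.92e-04, limma), although 30.4% of its 50-base words are shared, mostly with IRF3 on the opposite strand. BCL2A1, an NF-kB target, was at 2.67 ± 0.0265 and 2.84 ± 0.352 CPM (log2 difference 0.06, adjusted p = 0.581, limma). The BH3-only genes HRK, BIK and BMF and the relative BCL2L15 were below the filter, none above 0.88 CPM. HRK was the highest of these, at 0.43, 0.54 and 0.25 CPM under DMSO and 0.71, 0.88 and 0.61 CPM under AIL, about 13.6 and 26.9 reads. With no filter on low values, 5 relatives were called higher in place of 4.

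Genes that act around the family were counted from further lists, beside 28.2% called higher and 25.9% called lower over all genes tested. Downstream of cytochrome c release, 3 of 12 genes rose, 3 fell and 6 did not pass, so 50% were called against 54.1% of all genes. Cytochrome c itself (CYCS) rose from 280.8 ± 8.52 to 323.95 ± 9.70 CPM (SD, n = 3, adjusted p = 1.30e-05, limma) and the protease gene HTRA2 rose by 19.1%. DIABLO, whose product counters inhibitors of apoptosis, rose by 8.08%. APAF1, the scaffold that cytochrome c activates, fell from 46.3 ± 1.36 to 37.5 ± 1.05 CPM (adjusted p = 5.20e-06, limma), and the inhibitor of apoptosis gene BIRC3 fell by 8.23%. The DIABLO call was missed without DMSO replicate 1 or AIL replicate 1 (adjusted p = 0.105 and 0.113, limma). DIABLO was named with its value already known.

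Upstream of BID, 4 of 10 genes fell and 1 rose, so 50% were called against 54.1% of all genes. The TRAIL receptor gene TNFRSF10B fell by 11.04% and TNFRSF10A fell by 9.99%. RIPK1, an adaptor kinase of death receptors, fell by 10.4%, and CFLAR, an inhibitor of caspase-8 named after its value was seen, fell by 6.48%. TRADD, an adaptor of the TNF receptor, rose by 24.4%. CASP8, whose product cleaves BID, did not pass (log2 difference -0.07, adjusted p = 0.13, limma) and was chosen after its value was seen. Without DMSO replicate 1 it passed (-0.11, adjusted p = 0.0322, limma), and 5 of the 10 genes were then lower.

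In a list of 10 genes for partners at the outer membrane, not all resident there, 5 rose and 1 fell. Thus 60% were called, against 54.1% of all genes. FIS1, a fission factor, rose from 36.2 ± 1.40 to 47.8 ± 1.33 CPM (SD, n = 3, adjusted p = 3.18e-07, limma). MTCH2, the membrane receptor of the cleaved form of BID, rose from 187.0 ± 1.98 to 224.7 ± 6.47 CPM (adjusted p = 3.62e-07, limma), opposite to BID. The fusion gene MFN2 rose by 7.85%, and VDAC2, a channel that recruits BAK, rose by 6.16%. BCAP31, an endoplasmic reticulum partner of BCL2, rose by 7.67%, and the fusion gene MFN1 fell by 5.24%; both were named after their values were seen. Without DMSO replicate 2, VDAC2 and BCAP31 missed their calls (adjusted p = 0.0581 and 0.0547, limma) and 3 of the 10 were higher. BCAP31 also missed without DMSO replicate 3, AIL replicate 1 or AIL replicate 2 (adjusted p = 0.0652, 0.0827 and 0.106, limma). The MFN1 call (adjusted p = 0.0366, limma) was missed without DMSO replicate 1, DMSO replicate 3, AIL replicate 1 or AIL replicate 2. Without AIL replicate 3, and with the replicate block, 3 of the 10 were lower.

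Of 19 genes for kinases, phosphatases and phosphoserine-binding proteins that act on BAD, 10 fell and 4 rose. The share called was 73.7%, against 54.1% of all genes. RPS6KA3, a kinase of the RSK family, fell from 74.7 ± 2.09 to 57.9 ± 0.648 CPM (SD, n = 3, adjusted p = 8.00e-08, limma), AKT1 fell by 13.2% and YWHAH fell by 9.81%. YWHAZ, which encodes a protein that holds phosphorylated BAD in the cytosol, rose by 14.3% from 1397 ± 11.1 CPM. The other higher genes, named after their values were seen, were its relatives YWHAE and YWHAQ (8.72% and 8.32%) and the kinase gene PIM3 (12.4%), whose call was missed without DMSO replicate 3, AIL replicate 1 or AIL replicate 2 (adjusted p = 0.0586, 0.103 and 0.0657, limma). The BAD transcript itself did not pass. Of 12 genes that set MCL1 stability or transcription, 1 rose and 2 fell, so 25% were called. CCNT1, a cyclin of the elongation factor P-TEFb, rose by 9.35%. The ubiquitin ligase gene MARCH5 fell by 9.59% and FBXW7, a substrate receptor of another ligase, fell by 8.49%. Both ligase calls were missed without DMSO replicate 3 (adjusted p = 0.0885 and 0.0582), and without AIL replicate 2 (0.11 and 0.132), each time with 0 lower genes left. FBXW7 also missed without DMSO replicate 1 or AIL replicate 1 (adjusted p = 0.133 and 0.103, limma). With no AIL replicate 3 the count of higher genes was 3, and without AIL replicate 1 that of lower genes was 1. With quantile normalization 4 genes were lower, among them TPT1, which went from 0.02 (adjusted p = 0.477, limma) to -0.14 (adjusted p = 1.6e-05, limma) and was named for that shift.

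Of 18 transcriptional regulators of the members, 5 rose and 8 fell, so 72.2% were called against 54.1% of all genes. ATF4, which drives stress genes including PMAIP1 and BBC3 in other settings, rose from 281.2 ± 4.74 to 399.8 ± 9.79 CPM (SD, n = 3, adjusted p = 9.88e-11, limma). FOXO3, an activator of BCL2L11 and BBC3, rose from 29.8 ± 0.270 to 36.3 ± 0.365 CPM (adjusted p = 1.43e-05, limma), while neither BH3-only gene passed. The NF-kB genes split, as RELA rose by 44.1% and NFKB1 fell by 14.7%. The other higher genes, named after their values were seen, were the stress factor gene DDIT3 (29.6%) and CEBPB (26.5%). The count of lower genes went from 8 to 5 without DMSO replicate 2 and without AIL replicate 1.

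**Figure D4:**
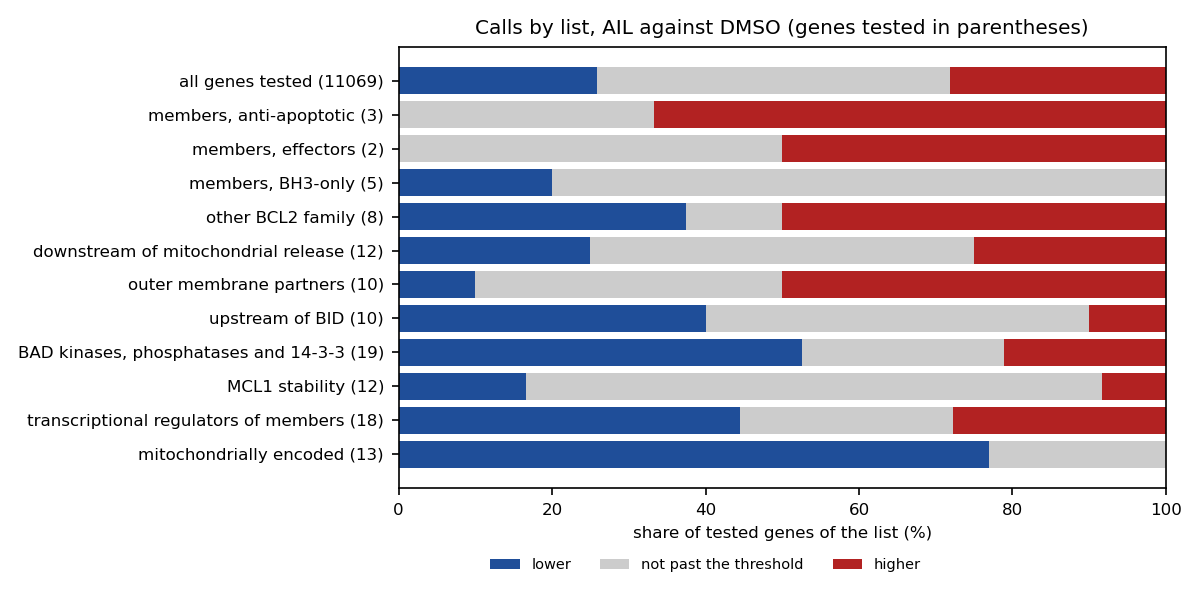
Share of tested genes called lower (blue), higher (red) or neither (grey) under AIL (horizontal axis, percent), for all genes tested and for each list, with the number tested in parentheses. The BH3-only members have no red share, and the anti-apoptotic members no blue one, at 5 and 3 genes.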

How the data were processed

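The authors deposited 1 table of TMM-normalized CPM for the 6 libraries, printed to 2 decimals, per the file name and the values. RSEM and edgeR 3.8.5 are listed, per the submitters' processing notes, with no role. Which aligner, annotation, genome build and strand setting were used is not stated in the sources at hand. Low values were whole multiples of 1 step per library within 0.2 reads for 99.95 to 99.98% of values, but rounding kept only 52.5 to 65.1% within 0.1 reads, so no count model was used.

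Differences were tested with limma 3.58.1 (R 4.3.3), two-sided, with an intensity trend, on log2(CPM + 1), keeping the 11069 genes that averaged 1 CPM or more. This scale understates changes of low genes. P-values were adjusted over all tested genes (Benjamini-Hochberg), with calls at 0.05. Percent changes are of mean CPM. TMM scaling hides a shift shared by most genes.

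Members and lists were chosen with earlier results of these data known. The text names all members, all relatives, and up to 4 called genes with the smallest p of every other list, and some genes within the counts are not reported here by name. Same-numbered DMSO and AIL libraries deviated together (r across genes of 0.159, 0.133 and 0.129), above the bound of 0.1, so the numbers may pair the libraries, on the evidence of the data alone. Results come from the fit without the replicate block, and blocked values stand beside members whose call they change. In the surrounding lists the block gave 6 outer membrane partners and 6 regulators higher, and 3 genes of the MCL1 list lower. Lengths, overlaps and 50-base words came from GENCODE v29. Alternatives were pseudocounts of 0.1 and 5, no filter or a minimum mean of 5 CPM, no trend, median-of-ratios and quantile scaling, the replicate block, and leaving out each library.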

Additional observations from a re-analysis of the deposited data

How the results depend on the processing

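MCL1, BCL2L2 and BID kept their direction and their call under all 14 alternatives, between 0.16 and 0.17, 0.29 and 0.37, and -0.26 and -0.21 on the log2 scale. The count of members called higher was 3, ranged from 2 to 5 with single libraries left out (5 without AIL replicate 3), and was 4 with the replicate block. The count called lower was 1, was 2 with the replicate block and 2 with median-of-ratios scaling, and ranged from 1 to 2 with single libraries left out. The pairing by replicate block changed the calls of BCL2L1 and PMAIP1 and of no other member. BAD, never called, ranged from -0.0074 (without DMSO replicate 3, limma adjusted p = 0.915) to 0.0811 with single libraries left out. The cause was not tested. Over all genes, leaving out libraries gave 2709 to 3270 higher and 2527 to 2924 lower, and the relatives, the surrounding lists and the mitochondrially encoded genes together 19 to 26 higher and 34 to 43 lower, of which 10 lower were mitochondrially encoded each time. The median AIL minus DMSO change in the log2 ratio of pro- to anti-apoptotic genes, over 21 pairs, stayed between -0.18 and -0.13. Per kb of all annotated exons, a length chosen after seeing the data, levels of all 10 members were lower by construction, and BAK1 (11.5 CPM per kb) stood above BID (11.2). BBC3 and the relatives under the filter rest on few reads, and the part of depth was not tested.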

Other observations

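Replicate 3 was the lowest library of its group for 5 of the 10 members under DMSO (50%) and for 7 of the 10 under AIL (70%), and in both groups for BCL2L1, BCL2L2, BAX, BID and BAD. Over all 11069 tested genes it was the lowest in 33.0% under DMSO, 41.2% under AIL and 19.2% in both. This was noticed in the data and not tested.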
